A study of Homo sapiens with 5 samples.

Results

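The miR-548 family was described in MCF10A cells, a human mammary epithelial line that is immortalized but does not form tumours, across 5 small RNA libraries. Its members were all rows of the count tables whose name starts with hsa-miR-548, joint names included: 73 of 2565 human miRNA rows. A joint row holds names that share a mature sequence, and 6 of the 73 rows were joint, so the rows held 81 names. Per the labels, the 3 attached libraries came from cells on uncoated tissue culture plates and the 2 detached libraries from cells kept in suspension over 2% poly-HEMA, a coating that prevents adhesion. All 5 libraries were made from the same line with no genetic change named, in medium with donor horse serum, epidermal growth factor, insulin, cholera toxin and hydrocortisone, from total RNA from which RNAs of 18 to 24 nucleotides were gel-purified. Culture time is uncertain for the attached cells: the design text puts it at 24 h, as for the detached cells, but their time label reads 0 h, so an effect of time cannot be told apart from one of attachment. The labels do not say that replicates were separate cultures, so p-values here rest on a spread between libraries that may be technical only.

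A miRNA is cut from a hairpin precursor, and either strand of the hairpin, the 5p or the 3p arm, can be kept as the mature miRNA that guides Argonaute to target transcripts. Targets are recognised mainly through the seed, the bases from position 2 to position 8 counted from the 5′ end. miR-548 genes lie in copies of the Made1 element, a short palindromic DNA transposon that spread in primate genomes and whose transcript folds back on itself. The family is therefore found in primates, has many gene copies, and its mature sequences are close to each other.

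Mature sequences for 52 of the 73 rows were found in RefSeq (GRCh38.p14). Those printed hold the most abundant row with a sequence, the most frequent seeds of each arm, pairs of near-identical names with very unequal counts, and the member least like the rest. miR-548f-5p, miR-548e-5p and miR-548b-3p are shown as tested members with less common seeds. Each is written 5′ to 3′, with the seed in capitals.

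miR-548k: aAAAGUACuugcggauuuugcu
miR-548ab: aAAAGUAAuuguggauuuugcu
miR-548aq-5p: gAAAGUAAuugcuguuuuugcc
miR-548w: aAAAGUAAcugcgguuuuugccu
miR-548j-5p: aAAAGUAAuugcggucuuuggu
miR-548aq-3p: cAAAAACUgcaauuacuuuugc
miR-548j-3p: cAAAAACUgcauuacuuuugc
miR-548ah-3p: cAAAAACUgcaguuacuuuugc
miR-548o-3p: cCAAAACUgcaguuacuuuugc
miR-548f-5p: uGCAAAAGuaaucacaguuuuu
miR-548e-5p: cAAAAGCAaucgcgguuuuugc
miR-548b-3p: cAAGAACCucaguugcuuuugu
miR-548q: gCUGGUGCaaaaguaauggcgg

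The sequences were rich in A and U, with a median AU content of 65.1% over the 52 rows against 47.8% over 2370 human mature names. miR-548q had the lowest AU content of the family at 45.5% and lay 12 edits from its nearest member. The 52 rows held 29 different seeds. The seed AAAGUAA was shared by 11 rows, 7 of them 5p names and 4 names without an arm, and the seed AAAAACU by 7 rows, all of them 3p names. Outside the family, miR-559 had the seed AAAGUAA.

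The 5p and 3p rows differed in which strand of the palindrome their letters followed. The motif AAAAGU, searched in the mature strand as written, was in 20 of the 52 rows. These were 12 of 15 5p rows, 0 of 20 3p rows and 8 of 17 rows without an arm. Its reverse complement ACUUUU was in 17 rows: 14 of 20 3p rows, 0 of 15 5p rows and 3 of 17 rows without an arm. No row held both motifs, and among all 2370 human mature names 1.18% held AAAAGU and 1.31% held ACUUUU. The longest stretch of 1 arm whose exact reverse complement lay in the other arm was compared in 5 hairpins. It was 11 bases in miR-548aq, 10 in miR-548at, 9 in miR-548j and miR-548ar and 5 in miR-548b. Other hairpins with a sequence for each arm, miR-548bb among them, were not compared. These lengths therefore set no upper limit for the family.

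Near-identical names limit what a single row can say. Among the 52 rows with a sequence, another member lay within 1 edit of 5 rows and within 2 edits of 17 rows. No sequence was found for miR-548e-3p, miR-548t-3p/aa and both arms of miR-548a, miR-548d and miR-548h. Their distance to other members was therefore not measured. How the authors assigned a read that matched several names is not given in the sources used here. miR-548k and miR-548ab differ by 2 edits, and they held 1110 and 4 counts over the 5 libraries. miR-548o-3p and miR-548ah-3p differ by 1 edit, and they held 474 and 10 counts. Values of single family members are therefore counts by name, and some reads may belong to a copy with another name.

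GENCODE 29 (GRCh38) lists 73 MIR548 genes on 22 chromosomes, and the positions of 49 of them were looked up. An intron of another gene on the same strand held 30, 14 lay outside other annotated genes and 5 overlapped a gene on the opposite strand only. The mature miR-548k lies at chr11:70283986-70284007 on the plus strand, in an intron of PPFIA1. miR-548e-5p lies at chr10:110988940-110988961, in an intron of SHOC2, and miR-548aq-5p at chr3:185767883-185767904 on the minus strand, in an intron of IGF2BP2. The row of miR-548o-3p covers a copy on chromosome 20, in an intron of RALGAPB, and a copy on chromosome 7 that lies opposite to PRKRIP1. Taking the row with the most counts for each gene, 27 of the 30 genes in same-strand introns had a count, 13 had at least 100, and the median total was 37.5 counts. Of the 14 genes outside other genes, 8 had a count, none had at least 100 (the highest had 67), and the median was 2 counts. The 5 opposite-strand genes held 474, 129, 30, 0 and 0 counts, where 474 is the miR-548o-3p row that the chromosome 20 copy shares. Rows without a sequence were assigned to these genes by name, and genes that share a row share its counts. MIR548AM and MIR548C, both among the 13, share a row of 142 counts, while their rows with a position held 2 and 19. The genes of miR-548a, miR-548d and miR-548h were not among those looked up.

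The human miRNA rows summed to between 8805009 and 15793173 counts per library, 97.1% to 98.7% of all named counts, and all levels are counts per 1000000 human miRNA counts (CPM). Mature miRNAs are close in length, so the levels were not divided by length. Attached 2 stood apart: its Spearman correlation with the other libraries over the tested human rows was 0.812 to 0.857, while the other 4 correlated with each other at 0.927 to 0.961. Values without it are given where leaving it out moved them most. A set of 6 mammary and basal epithelial miRNAs was counted in every library and summed to 41700 to 97400 CPM when attached and 86800 to 121000 CPM when detached. A set of 4 blood miRNAs summed to 1.36 to 16.2 CPM when attached and 17.9 to 18.0 CPM when detached, and its part in the results was not tested. Muscle miRNAs summed to at most 1.4 CPM when attached and 0.0949 and 11.7 CPM when detached, with miR-133a-3p at 0, and liver and neuron miRNAs stayed at or below 0.775 CPM.

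The family was broadly but thinly detected. At least 1 count was found for 49, 35 and 50 of the 73 rows in attached 1, 2 and 3, and for 48 and 49 in detached 1 and 2. Attached 2 was the low library, and the other 4 differed by 2 rows. These are 67.1%, 47.9%, 68.5%, 65.8% and 67.1% of the rows, against 54.9%, 46.2%, 57.1%, 59.6% and 59.9% of all human miRNA rows in the same order. At the depth of the smallest library, 47.0, 35, 49.1, 44.6 and 47.4 rows would be expected, and attached 2 stayed lowest at equal depth. At least 10 counts were found for 27, 14, 23, 25 and 26 rows.

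**Figure D1:**
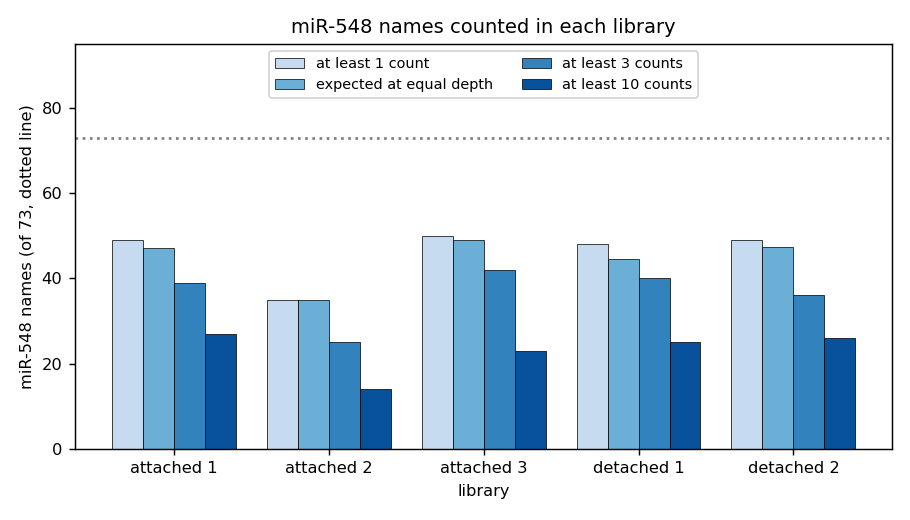
Number of miR-548 rows (y axis, of 73) with at least 1, 3 or 10 counts in each library (x axis), and the number expected with at least 1 count when each library is thinned to the depth of attached 2. Attached 2 has 35 rows and the other 4 libraries have 48 to 50.

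Over the 5 libraries, 59 rows (80.8%, against 74.8% of all human rows) had a count and 29 had a count in every library. A further 7 were counted in 1 library only. The 14 rows at 0 counts throughout were miR-548ad-3p, miR-548ad-5p/ae-5p, miR-548ae-3p, miR-548ak, miR-548ap-3p, miR-548ap-5p, miR-548aq-3p, miR-548au-5p, miR-548av-3p, miR-548av-5p, miR-548ay-5p, miR-548f-3p, miR-548m and miR-548x-3p. A count of 0 allows a level of up to 3 counts, or 0.190 CPM in the deepest and 0.341 CPM in the shallowest library, and such limits cover counting error only. In 4 hairpins with a row for each arm, 1 arm was at 0 in every library while the other was counted. The counted arms were miR-548f-5p (219 counts), miR-548aq-5p (185), miR-548ay-3p (67) and miR-548au-3p (9). In miR-548x the 3p row was also at 0, while its joint 5p row, which carries miR-548g-5p and miR-548aj-5p too, held 30 counts.

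All members together held 7832 counts, and the 10 rows with the highest mean level held 72.6% of them. The most abundant, miR-548k, had a mean of 21.0 CPM and ranked 285 among human miRNAs. The median mean level of the 59 counted members was 0.546 CPM, against 0.315 CPM over the 1918 human rows with a count. The 11 rows with seed AAAGUAA summed to 10.6, 7.5 and 10.7 CPM when attached and 6.46 and 7.5 CPM when detached. The 7 rows with seed AAAAACU summed to 0.329, 1.25 and 0.194 CPM when attached and 0.380 and 0.285 CPM when detached. In both seed groups the attached and detached ranges touched or overlapped.

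The summed level of the family was lower in both detached libraries than in any attached library. It was 150.0, 138.9 and 173.8 CPM when attached 1, 2 and 3, and 99.8 and 134.4 CPM in detached 1 and 2. The means were 154 ± 17.8 CPM (SD, n = 3) and 117 ± 24.5 CPM (SD, n = 2), a log2 ratio of -0.40, with a gap of a few CPM between the lowest attached and the highest detached library. With trimmed-mean (TMM) factors the log2 ratio was -0.62 and with DESeq2 size factors it was -0.66. It was -0.63 without detached 2 and -0.20 without detached 1. These sums were not tested, since the members were chosen with earlier results known. In bulk RNA, fewer cells with a miRNA and less of it per cell cannot be told apart.

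The 5p names and the names without an arm summed lower in detached libraries, and the 3p names did not. The 24 5p rows summed to 50.4, 41.1 and 68.3 CPM when attached and 23.2 and 37.2 CPM when detached, means of 53.3 ± 13.8 (SD, n = 3) and 30.2 ± 9.88 (SD, n = 2) and a log2 ratio of -0.82, which ranged from -0.52 without detached 1 to -1.20 without detached 2. The 28 3p rows summed to 69.0, 46.7 and 70.5 CPM when attached and 55.9 and 69.4 CPM when detached, means of 62.1 ± 13.4 (SD, n = 3) and 62.7 ± 9.54 (SD, n = 2). The 3p log2 ratio was 0.01 and became -0.20 with TMM factors and -0.22 with DESeq2 size factors, and the libraries of the groups overlapped. The 21 rows without an arm summed to 30.6, 51.1 and 35 CPM when attached and 20.6 and 27.8 CPM when detached, a log2 ratio of -0.68. That ratio was -0.44 without attached 2, whose high value was mostly miR-548k, and -0.11 without miR-548k.

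**Figure D2:**
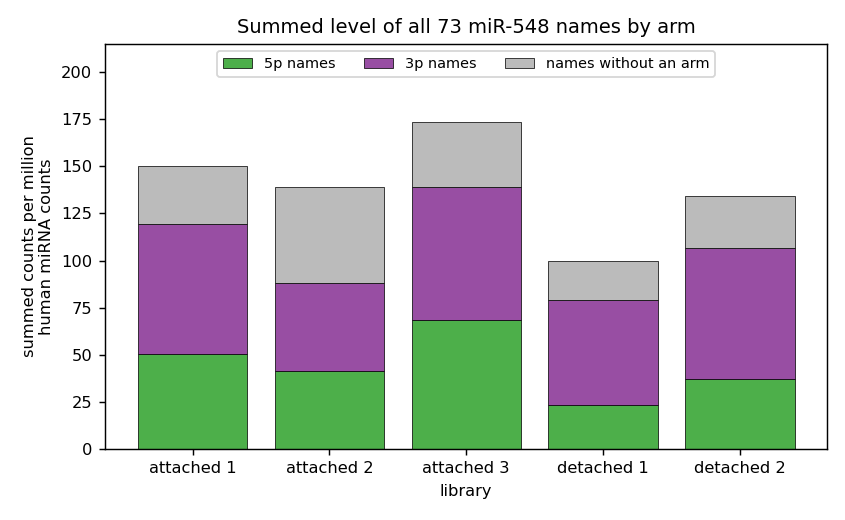
Summed level in CPM (y axis) of the 5p rows, the 3p rows and the rows without an arm in each library (x axis), stacked to the total of all 73 rows. The 5p part is 41.1 to 68.3 in the attached and 23.2 and 37.2 in the detached libraries, while the 3p parts overlap between the groups.

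The 5p share leaves out the rows without an arm, which held 23% of the family's counts. It was 42.2%, 46.8% and 49.2% of the counts with an arm in attached and 29.4% and 34.9% in detached libraries. Without the rows of miR-548d it was 35%, 46.2% and 44.1% against 30.7% and 38.2%. Without miR-548d and miR-548h it was 29.9%, 31.5% and 39.3% against 29.8% and 36.7%. The groups were thus apart with all hairpins and overlapped once miR-548d was left out, a choice made after its counts were seen.

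Single members were tested with edgeR's quasi-likelihood test over the 697 human rows that passed a low-count filter, 24 of them members (32.9% of the family, against 27.2% of all human rows). No member was called at an adjusted p (Benjamini-Hochberg over all 697 rows) under 0.05, as no human row was: 0.0% were called. At an unadjusted p under 0.05 there were 0 of 24 members, against 6.6% of the rows. The smallest adjusted p of a member was 0.759. Fold changes were negative, that is lower in detached libraries, for 15 members and positive for 9, with a median of -0.17 on the log2 scale against 0.20 over all rows. With TMM factors both medians shifted down, to -0.43 for the members and -0.04 for all rows, and 2 members had an unadjusted p under 0.05, against 7.03% of the rows. Without attached 3 the members' median was 0.05, with 11 negative and 13 positive values, against 0.35 over all rows of that fit. Without detached 2 it was -0.50, with 24 negative and 5 positive values, against -0.09 over all rows. DESeq2 called 0 members and 0.626% of 1918 rows, with 2 members at an unadjusted p under 0.05 against 4.07% of those rows, and edgeR without the low-count filter called 0 members and 1.04% of 1918 rows.

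By arm, fold changes were negative for 7 of 8 5p members (median -0.63), 3 of 9 3p members (median 0.15) and 5 of 7 members without an arm (median -0.14), against 42.0% of all tested rows. Without attached 2 the counts were 7 of 8, 6 of 9 and 6 of 6, against 48.2% of 679 rows. The median over all rows was then 0.05 in place of 0.20. The medians by arm were -0.73, -0.11 and -0.54. The sign of the 3p median thus changed with this library. These counts are descriptions, and the members share sequence and libraries.

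**Figure D3:**
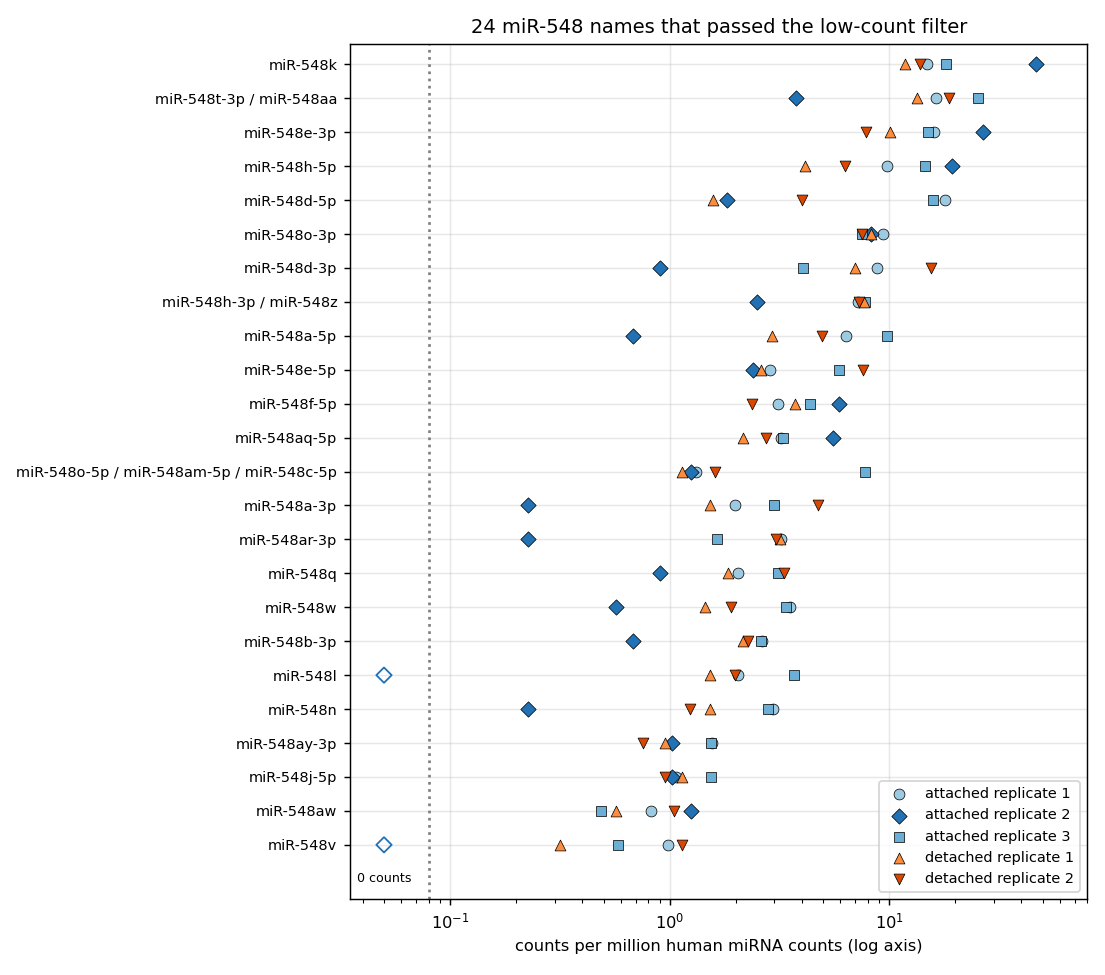
Level of each of the 24 tested members (rows) in CPM (x axis, log scale), 1 point per library; open diamonds left of the dotted line mark 0 counts. Attached 2 is the lowest point for many members and the highest for miR-548k, miR-548e-3p, miR-548h-5p, miR-548f-5p, miR-548aq-5p and miR-548aw.

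The most abundant member, miR-548k, was at 14.9, 46.7 and 18.1 CPM when attached and 11.8 and 13.8 CPM when detached. Every detached value was below every attached value, and attached 2 was far above the rest. Its log2 fold change was -1.06 (SE 0.75, edgeR adjusted p = 0.871) and -0.37 (SE 0.50, adjusted p = 0.938) without attached 2. miR-548t-3p/aa was at 16.4, 3.75 and 25.5 CPM when attached and 13.4 and 18.7 CPM when detached, overlapping between the groups. Its log2 fold change was 0.08 (SE 0.84), with TMM factors -0.07, and -0.38 without attached 2. The steadiest of the abundant members was miR-548o-3p, at 9.38, 8.29 and 7.56 CPM when attached and 8.23 and 7.5 CPM when detached, a log2 fold change of -0.10 (SE 0.58).

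Among 38 members with at least 15 counts, the libraries of the groups did not overlap for 6. Detached values were lower for miR-548aq-5p, miR-548ay-3p, miR-548e-3p, miR-548h-5p and miR-548k, 5 of 38, where 8.17% of 1028 human rows with at least 15 counts were lower in this way. Detached values were higher for miR-548s, 1 of 38, where 17.4% of those rows were higher. miR-548e-3p was at 16, 26.7 and 15 CPM when attached and 10.1 and 7.88 CPM when detached. miR-548h-5p was at 9.79, 19.4 and 14.5 CPM when attached and 4.12 and 6.27 CPM when detached. The log2 fold changes were -1.1 (SE 0.65) for miR-548e-3p and -1.49 (SE 0.67, edgeR adjusted p = 0.759) for miR-548h-5p. The latter had the smallest unadjusted p of the family, 0.058 in the edgeR fit.

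The lower-level rows of this group had smaller fold changes. miR-548aq-5p was at 3.21, 5.57 and 3.29 CPM when attached and 2.15 and 2.75 CPM when detached, a log2 fold change of -0.71 (SE 0.64), and -0.41 without attached 2. miR-548ay-3p was at 1.56, 1.02 and 1.55 CPM when attached and 0.950 and 0.760 CPM when detached, a log2 fold change of -0.68 (SE 0.65). In both, the gap between the groups was small beside the spread within attached libraries. miR-548s, at 6, 0 and 6 counts in attached and 11 and 12 counts in detached libraries, did not pass the filter and was not tested.

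miR-548d-5p had the largest fold change of the tested members. It was at 17.9, 1.82 and 15.8 CPM when attached and 1.58 and 3.99 CPM when detached. Attached 1 and 3 stood well above both detached libraries, and attached 2 lay between the detached values. The log2 fold change was -2.09 (SE 1.05, edgeR adjusted p = 0.786). Without attached 2 it was -2.61 (SE 0.62, edgeR adjusted p = 0.0854), with 1.77% of 679 rows called and no member among them.

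Only in fits chosen after the data were seen, without attached 2, was miR-548d-5p called. With TMM factors its log2 fold change was -2.79 (SE 0.57, edgeR adjusted p = 0.00862), where 3.39% of the rows were called and 0.147%, this row alone, were called lower. With DESeq2 it was -2.74 (SE 0.62, DESeq2 adjusted p = 0.0007), where 1.44% of the 1874 rows with a count were called, some of which had no adjusted p and could not be. Over all 5 libraries the call was absent under each setting tried. The other arm, miR-548d-3p, was at 8.80, 0.909 and 4.07 CPM when attached and 6.97 and 15.6 CPM when detached. Its values overlapped between the groups, with a log2 fold change of 1.28 (SE 0.92) and 0.80 (SE 0.62) without attached 2.

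The remaining tested 5p members had overlapping groups. miR-548a-5p was at 6.34, 0.681 and 9.79 CPM when attached and 2.91 and 4.94 CPM when detached (log2 fold change -0.52, SE 1.00, and -1.04 without attached 2). miR-548e-5p was at 2.88, 2.39 and 5.91 CPM when attached and 2.60 and 7.60 CPM when detached (0.45, SE 0.75, and 0.21 without attached 2), the only tested 5p member with a positive value. The row of miR-548o-5p, miR-548am-5p and miR-548c-5p was at 1.32, 1.25 and 7.75 CPM when attached and 1.14 and 1.61 CPM when detached. Attached 3 alone set the difference in that row: its log2 fold change was -1.32 (SE 0.99), and 0.09 without attached 3. miR-548f-5p was between 3.13 and 5.91 CPM when attached and at 3.74 and 2.37 CPM when detached (-0.54, SE 0.64, and -0.28 without attached 2). miR-548j-5p was between 1.02 and 1.55 CPM when attached and at 1.14 and 0.949 CPM when detached (-0.21, SE 0.64).

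Among the 3p members, miR-548h-3p/z was at 7.24, 2.50 and 7.75 CPM when attached and 7.66 and 7.31 CPM when detached. All but attached 2 lay within 7.24 to 7.75 CPM, and the log2 fold change was 0.36 (SE 0.69). miR-548a-3p was at 1.98, 0.227 and 3 CPM when attached and 1.52 and 4.75 CPM when detached (0.83, SE 0.98, and 0.32 without attached 2). miR-548ar-3p was at 3.21, 0.227 and 1.65 CPM when attached and 3.17 and 3.04 CPM when detached (0.85, SE 0.92, and 0.35 without attached 2). miR-548b-3p was at 2.63, 0.681 and 2.62 CPM when attached and 2.15 and 2.28 CPM when detached (0.15, SE 0.74, and -0.02 with TMM factors). For each of these rows attached 2 was the lowest library, and the sign of miR-548b-3p turned to -0.24 without it.

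The remaining tested members without an arm were all below 4 CPM. miR-548l was at 2.06, 0 and 3.68 CPM when attached and 1.52 and 1.99 CPM when detached (log2 fold change -0.14, SE 1.23). miR-548n was at 2.96, 0.227 and 2.81 CPM when attached and 1.52 and 1.23 CPM when detached (-0.54, SE 0.97). miR-548w was at 3.54, 0.568 and 3.39 CPM when attached and 1.46 and 1.90 CPM when detached (-0.58, SE 0.85). In these 3 rows attached 1 and 3 were above both detached libraries while attached 2 was below them, and without attached 2 the values were -0.71 (SE 0.56), -1.06 (SE 0.53) and -1.05 (SE 0.53). miR-548q was at 2.06, 0.909 and 3.10 CPM when attached and 1.84 and 3.32 CPM when detached (0.34, SE 0.73, and -0.01 without attached 2). miR-548v and miR-548aw were at most 1.25 CPM in any library, with log2 fold changes of 0.38 (SE 1.16) and -0.09 (SE 0.74).

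Attached 2 lay at one end of the range for most members. It was the lowest of the 5 libraries for 23 of the 38 members with at least 15 counts (60.5%, against 48.7% of 1028 human rows) and the highest for 10 (26.3%, against 21.9%). Relative to the mean of attached 1 and 3, 14 of the 24 tested members were below 50% in attached 2 and 6 were below 10%. Without it the members' median log2 fold change was -0.37, against 0.05 over 679 rows. There were then 2 of 23 members, miR-548d-5p and miR-548h-5p, at an unadjusted p under 0.05, where 10.8% of the rows were.

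**Figure D4:**
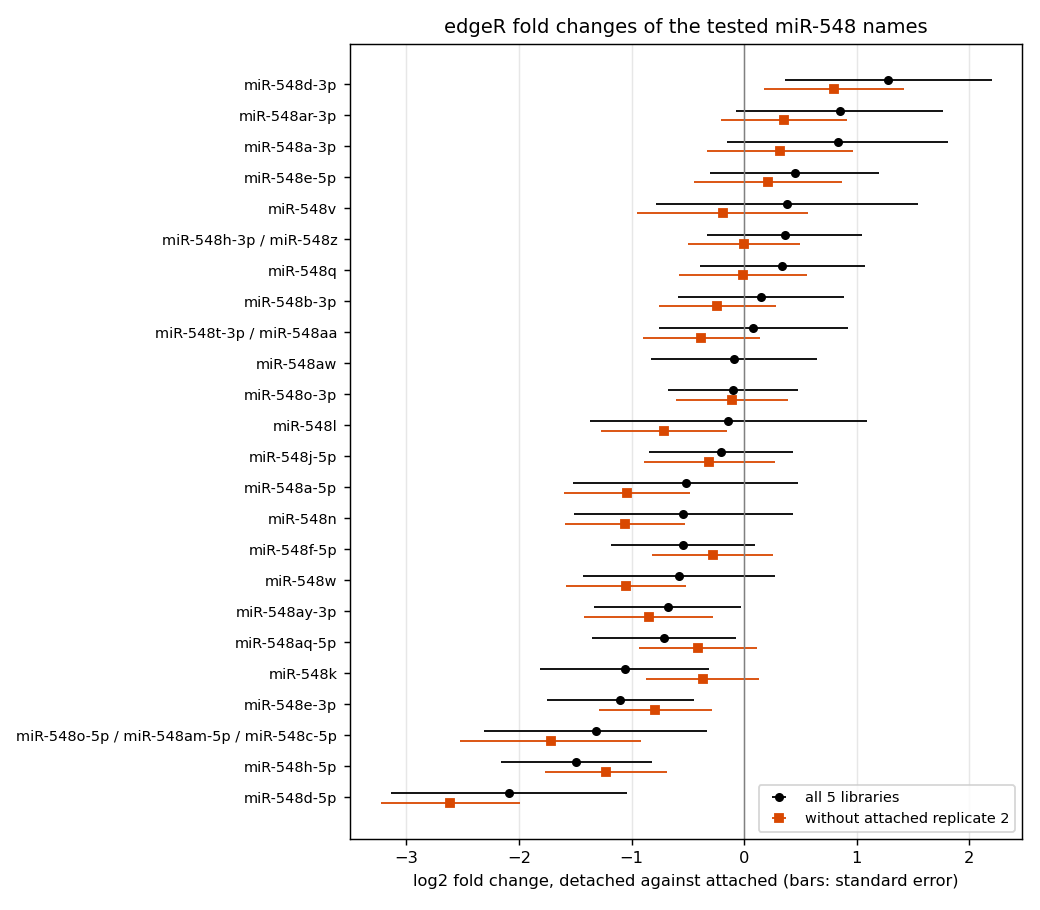
Log2 fold change of each tested member (x axis, detached against attached; negative is lower in detached) with its standard error as a bar, from edgeR on all 5 libraries (circles) and without attached 2 (squares). miR-548d-5p lies lowest in both fits, at -2.09 and -2.61, and most other bars cross or come near 0.

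The arms of a hairpin can be compared within a library, where a change in total scaling cancels. Of 12 hairpins with a miR-548 row, at least 10 counts per arm and a count in every library, the 5p share did not overlap between the groups in 4. It was lower in detached libraries in 3, miR-548d, miR-548h and miR-548a, where 15.8% of 304 human hairpins were lower in this way. It was higher in 1, miR-548g, where 11.8% were higher. Intervals of shares reflect counting error alone, because amplified copies of a molecule cannot be recognised in these counts.

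In miR-548d the 5p arm made up 218 of 325 counts in attached 1 (67.1%, exact Clopper-Pearson 95% interval 61.7% to 72.2%), 16 of 24 in attached 2 (66.7%, 44.7% to 84.4%) and 163 of 205 in attached 3 (79.5%, 73.3% to 84.8%). It made up 25 of 135 counts in detached 1 (18.5%, 12.4% to 26.1%) and 42 of 206 in detached 2 (20.4%, 15.1% to 26.5%). The 5p arm was thus the more abundant in every attached library and the less abundant in both detached libraries. The means were 71.1% ± 7.30 (SD, n = 3) and 19.4% ± 1.32 (SD, n = 2). An exact permutation test, with the two-sided p taken as 2 times the one-sided p, gave p = 0.2. That is the smallest value this form can give for 3 against 2 libraries. Any hairpin whose groups do not overlap gets it, so it adds nothing to that description. Attached 2, which stood apart in the levels of both arms, had a 5p share close to that of attached 1, with a wide interval from 24 counts.

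This ratio was set against those of other hairpins in a test added after the miR-548d counts were seen. The log2 ratio of the arms was fitted with limma over 195 human hairpins that had at least 20 counts in every library. No hairpin was called at an adjusted p under 0.05 (0.0%), and 5.64% had an unadjusted p under 0.05. miR-548d had the smallest p of the 195, with a change of -3.39 in log2(5p/3p) (SE 0.76, unadjusted p = 0.00167, limma adjusted p = 0.326). Without attached 2 it was the only hairpin called among 218 (0.459%), with a change of -3.48 (SE 0.60, limma adjusted p = 0.0313). That call was lost when the weights for counting error were also dropped (-3.52, limma adjusted p = 0.122). Leaving out any other library gave changes of -3.03 to -3.66. Without attached 1, 2 of 191 hairpins were called, and miR-548d was not among them. It then ranked 7 by p (limma adjusted p = 0.0837). Without attached 3 it ranked 3 of 194 hairpins (limma adjusted p = 0.503), and 0 hairpins were called.

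In miR-548h the 5p share was 57.5%, 88.6% and 65.2% in attached and 34.9% and 46.2% in detached libraries. Attached 2 was far above the rest. The change in log2 ratio was -1.87 (SE 0.89, limma adjusted p = 0.629), and -1.23 (SE 0.57, limma adjusted p = 0.544) without attached 2. In miR-548a it was 76.2%, 75.0% (of 8 counts) and 76.5% in attached and 65.7% and 51.0% in detached libraries. The hairpin entered the fit only without attached 2, with a change of -1.22 (SE 0.63, limma adjusted p = 0.573).

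The groups overlapped in the other miR-548 hairpins of the fit on all 5 libraries. The 5p share of miR-548e was 15.3%, 8.20% and 28.2% in attached and 20.5% and 49.1% in detached libraries, with a change of 1.37 (SE 0.92, limma adjusted p = 0.629), and 0.90 (SE 0.73) without attached 2. That of miR-548o was 12.3%, 13.1% and 50.6% in attached and 12.2% and 17.7% in detached libraries, with attached 3 alone high. Its change was -0.95 (SE 1.08, limma adjusted p = 0.755), and -1.35 (SE 0.89) without attached 2. That of miR-548t was at most 15.4% in any library, so its 3p row was the more abundant throughout. Its change was -1.97 (SE 1.81, limma adjusted p = 0.738), and -0.83 (SE 1.19) without attached 2. Whether these hairpins differ from miR-548d in their change was not tested. The 5p row of miR-548o also carries miR-548am-5p and miR-548c-5p, and the 3p rows of miR-548h and miR-548t carry miR-548z and miR-548aa, so these shares are of rows and not of single hairpins. For miR-548a, miR-548d and miR-548h the gene positions were not looked up. How many gene copies their rows cover was therefore not examined, and their shares are also of rows.

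Among hairpins with fewer counts, miR-548ar was mostly 3p (group means of 16.2% and 10.4% 5p in attached and detached libraries), as was miR-548b (25.4% and 20.8%). These means weigh each library alike, and attached 2 held 2 counts for miR-548ar, 9 for miR-548b and 11 for miR-548c. The attached shares of miR-548ar were 9.30%, 0.0% and 39.3%, so their mean describes none of them. miR-548j was mostly 5p (86.1% and 83.0%), and so was miR-548c by its joint row (89.3% and 79.6%). miR-548ao was close to even (58.3% in the 2 attached libraries with counts, and 57.1%). In these 5 the groups overlapped. In miR-548g, with 7 to 17 counts per library, the 5p share was 58.3%, 10.0% and 58.3% in attached and 58.8% and 71.4% in detached libraries. These did not overlap, but the gap was under 1 percentage point.

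**Figure D5:**
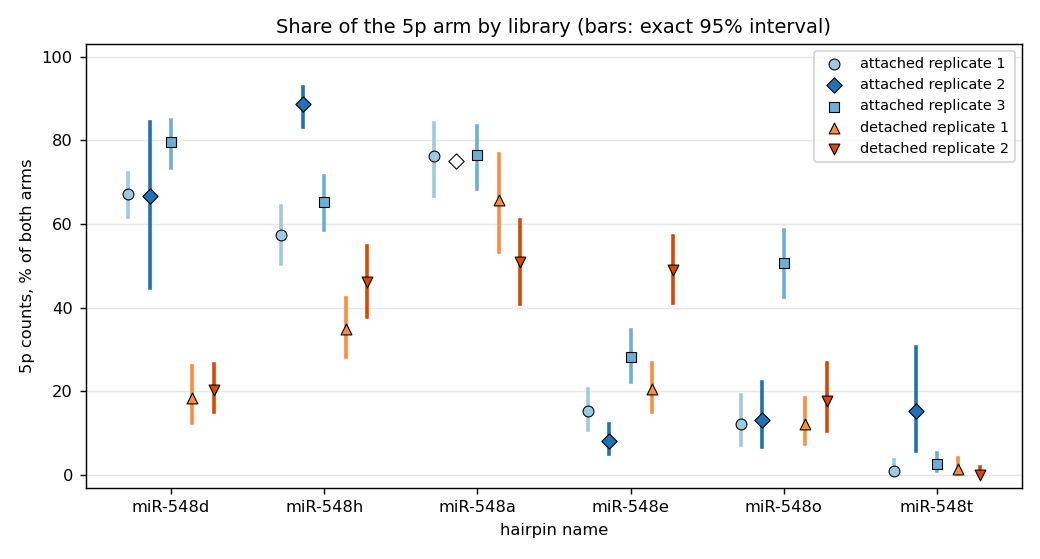
Share of the 5p arm in the counts of both arms (y axis, %) for 6 hairpins (x axis), 1 point per library with its exact 95% interval (counting error only); the open diamond has under 20 counts and no interval. miR-548d lies at 66.7% to 79.5% in the attached and 18.5% and 20.4% in the detached libraries.

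Of the names compared with the family, those that passed the filter gave no call. miR-570-3p, whose sequence lies 3 edits from miR-548aq-3p, was at 1.81, 0.114 and 2.91 CPM when attached and 2.79 and 8.73 CPM when detached. Detached 2 was high, and the log2 fold change was 1.82 (SE 1.06, edgeR adjusted p = 0.859). The joint member row of miR-548ai and miR-570-5p held 7, 2 and 5 counts in attached and 8 and 35 counts in detached libraries, again with detached 2 high. That row did not pass the filter. In edgeR without the filter its log2 fold change was 2.08 (SE 0.89, edgeR adjusted p = 0.49). miR-603, 2 edits from miR-548aq-3p, held 5, 0 and 4 counts in attached and 1 and 1 counts in detached libraries, and did not pass the filter either. miR-579-5p and miR-579-3p, each 12 edits from the nearest member, had log2 fold changes of -0.31 (SE 0.72) and 0.42 (SE 0.70).

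In the authors' deposited table of DESeq2 results, 67 member rows were listed, 54 had a fold change and 42 an adjusted p. The 67 did not include the 6 joint rows, among them miR-548t-3p/aa, miR-548h-3p/z and the miR-548o-5p row. Of the 42 in the authors' deposited table, 0 had an adjusted p under 0.05, where 0.602% of 2991 rows of all kinds did, and 2 of the 54 had an unadjusted p under 0.05, where 1.39% of 9617 rows did. Both are 5p names: the authors' deposited table gives miR-548d-5p a log2 fold change of -2.08 (SE 0.85, adjusted p = 0.672) and miR-548h-5p one of -1.63 (SE 0.72, adjusted p = 0.838).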

How the data were processed

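Small RNA of 5 MCF10A libraries was analysed, 3 attached and 2 detached. The deposited tables hold raw read counts per named small RNA, made by the authors on genome build hg38, per the submitters' processing notes; the sources used here name no aligner or counter. The authors' deposited comparison holds log2 fold changes and p-values from DESeq2, per the submitters' processing notes. Counts were scaled to the total of human miRNA rows. Human rows passing filterByExpr (minimum count 10, minimum total 15) entered the quasi-likelihood F test of edgeR 4.0.16 (R 4.3.3, no further scaling factor, Benjamini-Hochberg). Alternatives were TMM factors, DESeq2 1.42.0, limma-voom (limma 3.58.1), no filter, a stricter filter (50 counts in 2 libraries), the total of all named rows, a replicate block and leaving out each library. Arm ratios were log2((5p + 0.5)/(3p + 0.5)), fitted with limma, with weights from counting error plus a variance of 0.2, over hairpins with at least 10 counts per arm over all libraries. The scripts were tested on simulated data. Members were named with values if they passed the filter, were among the 10 most abundant, had at least 10 counts in both arms, or had at least 15 counts and groups that did not overlap. Members and lists were chosen with earlier results of these data known. Joint rows with a 5p or 3p name were counted with that arm. A total of 23 rows of other species' miR-548 names held 0 counts.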

Additional observations from a re-analysis of the deposited data

How the results depend on the processing

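No member was called under any setting on all 5 libraries or with 1 library left out of the edgeR fit. With attached 2 left out, 1 member, miR-548d-5p, was called with TMM factors and 1, the same row, with DESeq2, both settings chosen after seeing the data. The summed level of the family, a log2 ratio of -0.40, was -0.62 with TMM factors and -0.66 with DESeq2 size factors, and lay between -0.63 and -0.20 with single libraries left out. With at least 10 counts in place of 1, detection was 27, 14 and 23 rows in attached 1, 2 and 3 and 25 and 26 rows in detached 1 and 2. The arm ratio of miR-548d lay between -3.66 and -3.03 with single libraries left out, and was called only without attached 2 (-3.48). The median fold change over all tested rows moved by over 0.1 with TMM factors, from 0.20 to -0.04.

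The sign of a member's fold change turned in 38 of 320 recomputed values, for 14 of the 24 tested members, and in none of the 38 did the value exceed its own standard error. The cause was not tested. With TMM factors the log2 fold change was -0.02 for miR-548b-3p and -0.07 for miR-548t-3p/aa, and with DESeq2 these were -0.01 and -0.06. With limma-voom it was 0.07 for miR-548a-5p and 1.1 for miR-548l. With TMM factors and without attached 2 it was -0.35 for miR-548b-3p, -0.09 for miR-548h-3p/z, -0.13 for miR-548q, -0.48 for miR-548t-3p/aa and -0.36 for miR-548v. With DESeq2 and without attached 2 these were -0.30, -0.04, -0.08, -0.44 and -0.31, and miR-548aw was at 0.16. With single libraries left out, values ranged from -0.20 to 1.46 for miR-548a-3p, from -1.04 to 0.15 for miR-548a-5p, from -0.56 to 0.30 for miR-548aw, from -0.24 to 0.41 for miR-548b-3p and from -0.52 to 1.02 for miR-548e-5p. They ranged from -0.0 to 0.61 for miR-548h-3p/z, from -0.35 to 0.0 for miR-548j-5p, from -0.71 to 0.72 for miR-548l, from -1.72 to 0.09 for the miR-548o-5p row, from -0.14 to 0.78 for miR-548q, from -0.38 to 0.67 for miR-548t-3p/aa and from -0.74 to 1.07 for miR-548v.

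Replicate numbers are shared by the groups for replicates 1 and 2. The deviations of same-numbered libraries from their group means correlated at -0.17 and -0.14. With only 2 detached libraries, their deviations mirror each other, and attached 2 stood apart. These correlations therefore cannot settle whether the numbers pair the libraries. With the replicate number as a block, 0 members were called. The median of the 24 values was 0.27 and 10 were negative, against 0.55 and 33.0% over all 697 rows. The attached library whose number no detached library shares does not inform this contrast. The contrast therefore rests on replicates 1 and 2, attached 2 among them. In this fit the log2 fold change was 0.75 for miR-548a-5p, 1.63 for miR-548l and 0.43 for miR-548n. It was 0.08 for the miR-548o-5p row and 0.11 for miR-548w. With 1 library left out of the detached group, the lone library is assumed to vary like the attached ones. Low counts limit most of the family: 21 members had 1 to 14 counts over all libraries.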
